A study of Rattus norvegicus with 8 samples.

Results

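The unfolded protein response and the folding machinery of the endoplasmic reticulum (ER) were followed as 36 listed genes in rat small intestine. The members were the loci in the authors' gene table whose name is exactly a listed symbol, and 33 of the 36 had such a locus among 52753 loci. Hsp90b1, Pdia4 and Manf appeared only in loci that also carry another gene symbol, so their values are given apart and enter no count. Derl3, which sits on an unplaced scaffold in the table, had 0 fragments in all 8 libraries. That left 32 members among the 16941 loci with enough fragments to test. They were read in 5 arms: 12 lumenal chaperones and disulfide isomerases (folding), 2 subunits of the Sec61 translocon, 7 genes of ER-associated degradation (ERAD), 5 genes of the stress sensors including the factor Xbp1, and 6 genes of the ATF4 arm.

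The series holds stranded mRNA sequencing of whole-length small intestine from Sprague Dawley rats at postnatal day 21, with 4 libraries labelled CF and 4 labelled WT. The CF rats have cystic fibrosis, the disease caused by loss of the anion channel CFTR, and the WT rats are wild type. The labels give no CFTR allele, sex, litter or batch, and they do not state that the libraries are separate animals, so the p-values here measure spread between libraries, which may be technical. Library numbers run from 0 to 3 in each group and are only names. The CF libraries held 18.6 to 20.9 M fragments and the WT libraries 15.3 to 20.8 M. A count of 0 with a limit of 3 fragments corresponds to 0.144 to 0.197 CPM, counts scaled to the library size. The samples are bulk tissue, in which a different share of a cell type and a different RNA level per cell cannot be told apart.

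Proteins bound for secretion enter the ER through the Sec61 channel, are folded there by chaperones and disulfide isomerases, and are withdrawn to the proteasome by ERAD when folding fails. Sensors in the ER membrane report an excess of unfolded protein. IRE1 (Ern1) splices the Xbp1 message, ATF6 is cut to release a transcription factor, and PERK (Eif2ak3) phosphorylates eIF2alpha, which slows translation and favours that of Atf4. XBP1 and ATF6 act mainly on folding and ERAD genes, while ATF4 acts on amino acid synthesis, feedback and death genes and can also be reached from kinases outside the ER. In the intestine the response is known above all from goblet and Paneth cells, which secrete large amounts of mucin and antimicrobial protein.

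XBP1 and ATF6 are known to read a few short promoter elements, which were looked for in the members of every arm. Each element was searched on both strands in the RefSeq promoter table (assembly GRCr8, 250 bases before to 50 after the start, 33469 promoters), where 29 of the 36 members had an entry. The ER stress element ERSE, which is CCAAT, any 9 bases and CCACG, was found in 22 promoters (0.0657%), and 8 of the genes concerned were members: Calr, Canx, Creld2, Derl3, Dnajc3, Hsp90b1, Hspa5 and Xbp1. ERSE-II, which is ATTGG, any 1 base and CCACG, was found in 17 promoters (0.0508%), those of Dnajb11, Herpud1 and Hyou1 among them. UPRE, TGACGTGG, was in 199 promoters (0.595%), with Hyou1 as the only member. The ATF4 composite element, TGATGNAA, is short and was in 1332 promoters (3.98%), including those of Chac1, Herpud1 and Trib3. A match is a run of letters and no measured site of binding.

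The 250 bases before the start are shown for 3 folding genes with the elements named above, 5′ to 3′ on the gene's strand, with the fixed letters of each match in capitals. Hspa5 (chr3:38452766-38453015, plus strand) has an ERSE that ends 25 bases before the start. Hsp90b1 (chr7:23012294-23012543, minus strand) has an ERSE on each strand. Hyou1 (chr8:53602632-53602881, plus strand) has 2 ERSE-II matches on the opposite strand, the farther of which overlaps the UPRE, and the table holds 2 promoter entries for it.
Hspa5: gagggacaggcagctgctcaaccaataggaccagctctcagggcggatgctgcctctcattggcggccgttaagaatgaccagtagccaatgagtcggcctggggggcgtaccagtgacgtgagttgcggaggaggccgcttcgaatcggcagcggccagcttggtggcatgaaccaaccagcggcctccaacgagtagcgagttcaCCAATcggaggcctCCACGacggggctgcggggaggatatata
Hsp90b1: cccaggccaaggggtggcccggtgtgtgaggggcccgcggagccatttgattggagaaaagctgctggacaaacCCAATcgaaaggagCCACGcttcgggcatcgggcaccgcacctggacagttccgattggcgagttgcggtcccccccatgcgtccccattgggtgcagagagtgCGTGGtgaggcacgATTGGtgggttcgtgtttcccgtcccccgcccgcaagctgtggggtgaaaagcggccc
Hyou1: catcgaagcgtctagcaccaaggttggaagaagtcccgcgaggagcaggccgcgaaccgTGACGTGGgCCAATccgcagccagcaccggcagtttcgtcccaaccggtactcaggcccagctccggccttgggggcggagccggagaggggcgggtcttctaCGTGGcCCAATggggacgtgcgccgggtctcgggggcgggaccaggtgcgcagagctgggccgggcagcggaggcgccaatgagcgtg

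Trib3 (chr3:161275534-161275783, minus strand) and Chac1 (chr3:126795881-126796130, plus strand) are shown in the same way as the members of the ATF4 arm that hold its element. Both matches lie on the opposite strand, 14 bases before the start in Trib3 and 160 bases before it in Chac1.
Trib3: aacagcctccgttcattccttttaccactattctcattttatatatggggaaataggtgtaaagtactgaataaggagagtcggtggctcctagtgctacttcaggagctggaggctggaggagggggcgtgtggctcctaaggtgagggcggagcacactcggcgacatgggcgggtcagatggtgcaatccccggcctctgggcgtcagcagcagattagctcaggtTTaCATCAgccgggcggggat
Chac1: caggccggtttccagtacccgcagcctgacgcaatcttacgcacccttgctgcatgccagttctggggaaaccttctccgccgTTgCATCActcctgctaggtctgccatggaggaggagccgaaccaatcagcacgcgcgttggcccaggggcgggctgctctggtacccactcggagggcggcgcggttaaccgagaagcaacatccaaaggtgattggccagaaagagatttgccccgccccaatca

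The comparison of CF with WT asks how loss of CFTR bears on the intestine at the level of transcripts. Fold changes are given as the log2 ratio of CF over WT with its standard error (SE) and were tested with edgeR (quasi-likelihood, Benjamini-Hochberg over all tested loci). In that test 28 of 16941 loci (0.165%) passed an adjusted p of 0.05, and none of the 32 members did. The lowest adjusted p among members was 0.140, for Ppp1r15a. DESeq2 called 2 members, Sdf2l1 and Ppp1r15a, but it also called 566 of 40004 loci (1.41%). Without the low-count filter edgeR called 4, adding Atf6 and Chac1, where 553 of 40061 loci (1.38%) were called. With limma-voom no member was called, where 0.1% of loci were. At an unadjusted p under 0.05 by edgeR there were 13 members, all with the higher mean in CF, where 7.94% of all loci met that value with the higher mean in CF and 7.21% with the lower. In CPM, the 4 CF libraries lay wholly above the 4 WT libraries in 6 members, where 4.86% of all loci did so. These were Sdf2l1, Sec61b, Syvn1, Atf6, Atf6b and Ppp1r15a. In no member did the CF libraries lie wholly below, where 3.91% of all loci did so. Members vary together from library to library, so these counts are not counts of independent genes.

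Small differences in the same direction ran through the list. The fold change favoured CF in 29 of 32 members, against 8340 of 16941 loci, and the median log2 ratio was 0.25, against −0.005 over all loci. The ATF4 arm had the highest median, 0.69 over 6 genes, with a range from 0.04 to 1.49. The median was 0.18 over the 12 folding genes (range −0.01 to 0.53), 0.19 over the 7 ERAD genes (range −0.003 to 0.42) and 0.23 over the 5 sensors (range −0.05 to 0.46). The 2 translocon subunits had log2 ratios of 0.39 each. At an unadjusted p under 0.05 stood 5 of 6 ATF4 genes, 3 of 5 sensors, 2 of 2 translocon subunits, 2 of 12 folding genes and 1 of 7 ERAD genes.

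**Figure D1:**
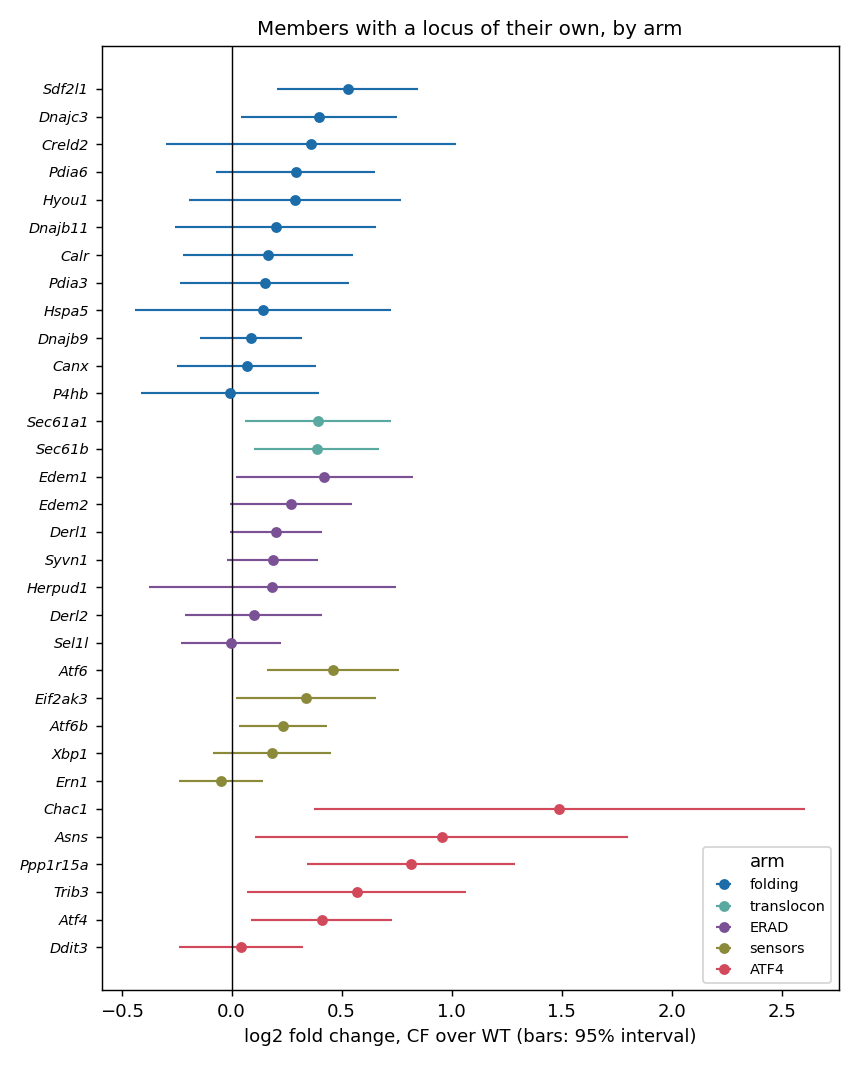
Log2 ratio of CF over WT for the 32 tested members, grouped by arm, with 95% intervals from edgeR's quasi-likelihood fit. Most points lie a little to the right of 0, and the widest intervals belong to Chac1 and Asns at the high end of the ATF4 arm.

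Per length, by the authors' FPKM values averaged over the 8 libraries, the members with fragments spanned from 0.663 to 794 FPKM. P4hb, which encodes protein disulfide isomerase itself, was the most abundant, at 791 ± 156 FPKM in CF and 798 ± 167 in WT (SD, n = 4 each). Calr, Pdia3 and Hspa5 followed at 484, 335 and 241 FPKM in WT. In the mean of all 8 libraries Atf4 came next, at 142 ± 12.7 FPKM in WT and 185 ± 30.5 in CF, above every ERAD gene and sensor. Xbp1 stood at 97.4 FPKM in WT, while the sensor Ern1 stood at 7.26, and the target genes Trib3 and Chac1 were lowest at 3.69 and 0.379. Neighbours in this order mostly lay within each other's spread, and no difference between them was tested.

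**Figure D2:**
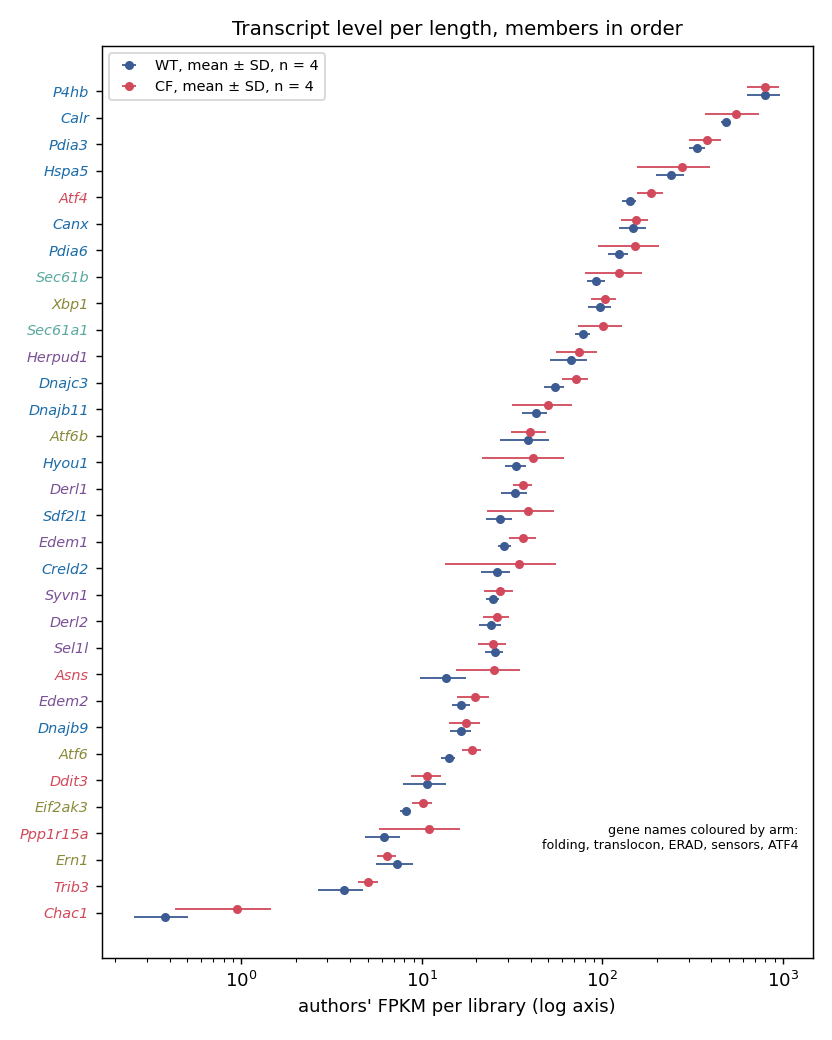
The authors' FPKM of the 32 members with fragments, mean ± SD of 4 libraries per group on a log axis, ordered by the mean of all 8 libraries. Folding genes hold the first 4 places, and the CF and WT means of most genes overlap within their SD.

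The folding arm differed among libraries more than between the groups. Hspa5 (chr3:13838303-13842762 in Rnor_6.0, with this and later spans as the authors' table prints them) encodes BiP, the main Hsp70 chaperone of the ER lumen. Its levels were 1308, 593, 723.5 and 878 CPM in CF libraries 0 to 3 and 542, 757, 822 and 1049 CPM in WT libraries 0 to 3. CF library 0 was highest of all 8, while CF library 1 lay below 3 of the WT libraries, so the groups overlapped. CF exceeded WT by 0.14 on average on the log2 scale (SE 0.26, 95% interval −0.44 to 0.73, adjusted p = 0.833 by edgeR's quasi-likelihood test). Without CF library 0 it was −0.11, and without CF libraries 0 and 3, a choice made after the values were seen, −0.27.

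Sdf2l1 (chr11:88122270-88124517), a cofactor that works with BiP and its J-domain partners, was the 1 folding gene whose groups did not overlap. It stood at 48.4, 33.8, 34.9 and 46.2 CPM in CF libraries 0 to 3 and at 25.3, 26.4, 28.9 and 32.8 CPM in WT. The lowest CF library was thus just above the highest WT library. The mean difference gave a log2 ratio of 0.53 (SE 0.145, 95% interval 0.21 to 0.85, adjusted p = 0.154 by edgeR's quasi-likelihood test), the largest of the arm. DESeq2 gave an adjusted p of 0.0495. By the authors' FPKM the group means were 38.6 ± 15.6 in CF and 27.1 ± 4.41 in WT (SD, n = 4 each).

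P4hb, the most abundant member by FPKM, had nearly equal means in both groups. Its levels were 2196, 2774, 2180 and 2316 CPM in CF and 2531, 1968, 1957 and 3053 CPM in WT. WT library 3 held the highest and WT library 2 the lowest value, with all CF libraries between them. On average the log2 ratio was −0.01 (SE 0.18, 95% interval −0.41 to 0.40). It was the only folding gene of the 12 that did not peak in CF library 0.

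Hyou1, a nucleotide exchange factor for BiP, also peaked in CF library 0. It stood at 319, 154, 185 and 246 CPM in CF and at 151, 183, 182 and 224 CPM in WT. CF library 0 and CF library 3 were the top pair, as in 5 of the 12 folding genes, WT library 3 led the WT group, and the log2 ratio was 0.29. Creld2, an ER stress-inducible disulfide isomerase, had the steepest difference between CF library 0 and the other CF libraries among the 12 folding genes, at 87.7, 32.7, 43.4 and 59.9 CPM against 34.2, 38.5, 43.8 and 57.7 CPM in WT. Its level in CF library 0 was 0.95 above the other 3 CF libraries on the log2 scale, while CF library 1 was the lowest of all 8.

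The other folding genes had log2 ratios from 0.07 to 0.40, with overlapping groups. The lectin chaperones Canx and Calr, which hold glycoproteins in the folding cycle, were at 0.07 and 0.17. Pdia3, the isomerase that works with them, was at 0.15, and Pdia6, which reduces disulfides of client proteins and of IRE1, at 0.29. The J-domain partners of BiP ranged from 0.09 for Dnajb9 and 0.20 for Dnajb11 to 0.40 for Dnajc3, which with Sdf2l1 made up the folding genes with an unadjusted p under 0.05. The loci of Pdia3 and Dnajc3 span 172.8 kb and 273 kb in the table and may hold neighbouring transcripts.

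The shared loci followed the same course. That of Hsp90b1, the ER form of Hsp90, held 1290, 510, 737 and 798 CPM in CF and 659, 726.5, 733 and 871 CPM in WT, with CF library 0 highest and CF library 1 lowest. Its log2 ratio was 0.16. Those of the isomerase Pdia4 and of the secreted stress factor Manf had log2 ratios of 0.25 and 0.23, again with CF library 0 highest.

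CF library 0 was the highest of the 8 libraries in 11 of the 12 folding genes and in both translocon subunits. Over all tested loci it was highest in 21.3%. WT library 3 was the highest WT library in the same number of folding genes, 11 of 12, against 29.0% of all loci. Among the 9 tested members with an ERSE or ERSE-II match in the promoter window, 7 peaked in CF library 0, and among the 17 with an entry but no match, 4 did. The median log2 ratios of these groups were 0.19 and 0.34. The group with a match is mostly folding genes, and the group without one holds all 6 ATF4 genes. Match and arm therefore cannot be told apart in these counts and medians.

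**Figure D3:**
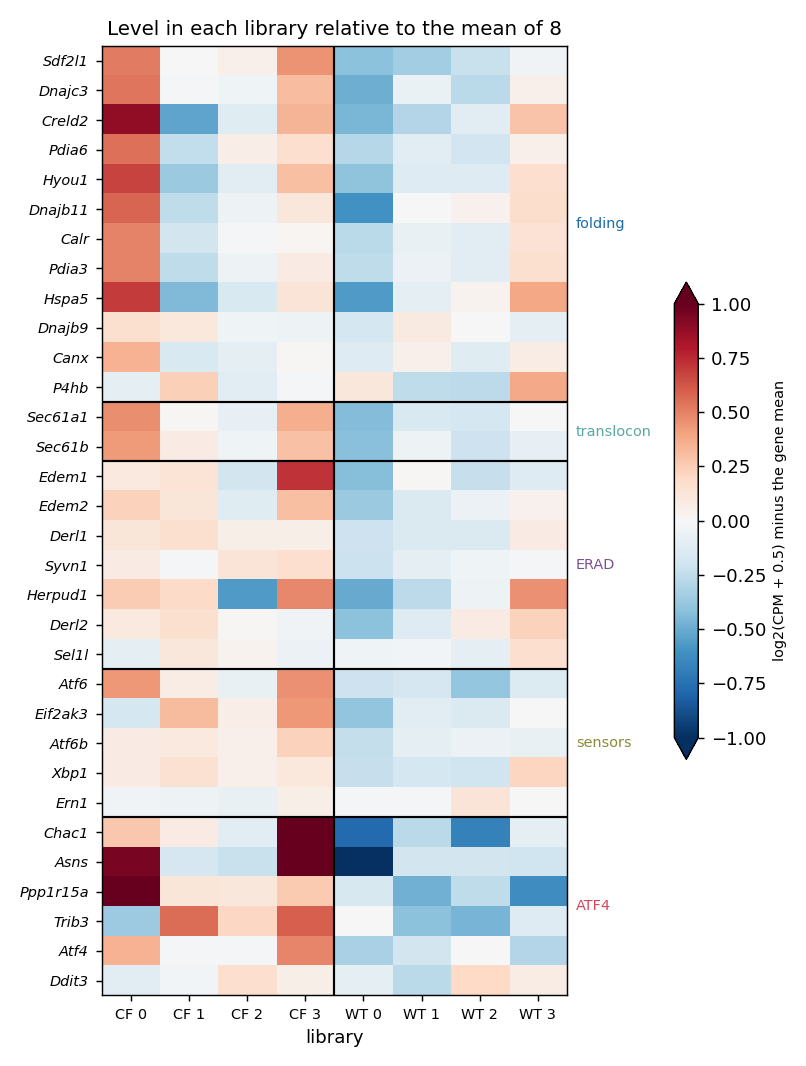
Level of each tested member in each library, as log2(CPM + 0.5) minus the gene's mean over the 8 libraries, with colours limited at −1 and 1. Rows are grouped by arm; the folding and translocon rows are reddest in CF library 0, the ATF4 rows mostly in CF library 3, and WT library 0 is blue in most rows.

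The translocon subunits were among the members with higher means in CF. Sec61b (chr5:63192297-63200508), the small tail-anchored subunit, stood at 64.3, 50.6, 46.3 and 58.8 CPM in CF and at 35.6, 46.2, 41.4 and 45.1 CPM in WT. The groups did not overlap, although CF library 2 and WT library 1 were nearly equal. Its log2 ratio was 0.39 (SE 0.13, adjusted p = 0.215 by edgeR's quasi-likelihood test). By the authors' FPKM it was at 123.2 ± 43.0 in CF and 92.6 ± 10.3 in WT (SD, n = 4 each). Sec61a1, which forms the channel itself, was at 359, 263, 246 and 336 CPM in CF and 193, 235, 231 and 259 CPM in WT, with a log2 ratio of 0.39 (SE 0.15, adjusted p = 0.265). CF libraries 0 and 3 were the top pair for both.

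The ERAD arm had a median log2 ratio of 0.19, close to the 0.18 of the folding arm and below the translocon, sensor and ATF4 arms. Syvn1 (chr1:221409270-221420115), the ubiquitin ligase at the centre of the ERAD complex, was the ERAD gene whose groups did not overlap, at 146, 137, 151 and 155 CPM in CF and 118, 129, 134 and 136 CPM in WT. The gap was narrow, and the log2 ratio was 0.19 (SE 0.09, adjusted p = 0.374 by edgeR's quasi-likelihood test). By the authors' FPKM Syvn1 was at 26.95 ± 4.90 in CF and 24.73 ± 2.01 in WT (SD, n = 4 each). Its partner Sel1l, which holds the ligase complex together, had a log2 ratio of −0.003 (95% interval −0.23 to 0.22).

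Herpud1, an adaptor of that complex and a gene read by both XBP1 or ATF6 and ATF4, was the most abundant ERAD gene per length, by FPKM. Its counts stood at 160, 154, 90.6 and 188 CPM in CF and at 94.5, 112, 130 and 184 CPM in WT. CF library 2 was the lowest of all 8 and CF library 3 the highest, and the log2 ratio was 0.19 (SE 0.25). Edem1, which acts on the mannose chains of misfolded glycoproteins, was the ERAD gene with an unadjusted p under 0.05, at 90.6, 92.8, 74.3 and 140 CPM in CF and 62.8, 85.1, 72.1 and 77.1 CPM in WT. Its difference rested mostly on CF library 3, and the log2 ratio of 0.42 (SE 0.18, adjusted p = 0.311) became 0.21 without it. Edem2, Derl1 and Derl2, a mannosidase and members of the Derlin family of membrane channels, were at 0.27, 0.20 and 0.10. CF library 3 was highest in 4 of the 7 ERAD genes, and CF library 0 in none.

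In CPM, both ATF6 forms were higher in every CF library than in any WT library. Atf6 (chr13:89053432-89242516) stood at 157, 122, 110 and 160 CPM in CF and at 101, 103, 88.9 and 106 CPM in WT. Its log2 ratio was 0.46 (SE 0.135, 95% interval 0.16 to 0.76, adjusted p = 0.170 by edgeR's quasi-likelihood test), the largest among the sensors. Atf6b, the weaker transactivator of the pair, was at 99.7, 101, 97.4 and 111 CPM in CF and at 79.7, 88.3, 90.1 and 89.4 CPM in WT, a log2 ratio of 0.23 (SE 0.09, adjusted p = 0.268). By the authors' FPKM, Atf6b was nearly equal, at 39.85 ± 8.84 in CF and 38.63 ± 11.7 in WT (SD, n = 4 each). Atf6 kept its difference there, at 18.98 ± 2.24 and 14.09 ± 1.26. Their loci span 189.1 kb and 205.9 kb in the table, so neighbouring transcripts may be included.

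The IRE1 branch gave less separation. Ern1 had a log2 ratio of −0.05 (SE 0.09), and its levels kept between 39.5 and 45.6 CPM in all 8 libraries. Xbp1 (chr14:85753279-85760044) was at 267, 281, 262 and 271 CPM in CF and at 215, 224, 220.5 and 293 CPM in WT. The CF libraries were close to each other and above 3 WT libraries, while WT library 3 was above all of them. For Xbp1 the log2 ratio was 0.18 (SE 0.12, 95% interval −0.08 to 0.45, adjusted p = 0.500 by edgeR's quasi-likelihood test). Counts per locus do not separate spliced from unspliced Xbp1, so IRE1 activity was not measured.

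Eif2ak3, which encodes PERK, stood at 40.4, 56.8, 47.8 and 61.9 CPM in CF and at 34.6, 42.4, 41.1 and 45.5 CPM in WT. Only CF library 0, the library with the highest folding genes, lay within the WT range. With that, the log2 ratio was 0.34 (SE 0.14, adjusted p = 0.304 by edgeR's quasi-likelihood test).

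The ATF4 arm held the largest differences of the list, and they were uneven. Atf4 itself (chr7:121480722-121482772) stood at 330, 256.5, 256 and 364 CPM in CF and at 207, 229, 260 and 212 CPM in WT. CF libraries 0 and 3 were well above the WT range, whereas CF libraries 1 and 2 lay just under the highest WT library. Its log2 ratio was 0.41 (SE 0.145, 95% interval 0.09 to 0.73, adjusted p = 0.235 by edgeR's quasi-likelihood test). Atf4 is controlled to a large part through translation, which transcript counts do not show.

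Ppp1r15a (chr1:101511900-101514974) encodes GADD34, the phosphatase subunit that reverses eIF2alpha phosphorylation, and had the lowest adjusted p of the list. It was at 50.8, 27.0, 26.8 and 29.8 CPM in CF and at 22.1, 17.7, 20.7 and 16.0 CPM in WT. All 4 CF libraries exceeded all WT libraries, with CF library 0 far above the rest. This amounted to a log2 ratio of 0.81 (SE 0.21, 95% interval 0.34 to 1.29, adjusted p = 0.140 by edgeR's quasi-likelihood test), and 0.55 without CF library 0. By the authors' FPKM the level was 10.97 ± 5.22 in CF and 6.19 ± 1.37 in WT (SD, n = 4 each). Ppp1r15a is also induced by stimuli outside the ER. A list of genes known to respond to tissue handling held 15 tested genes, all with the higher mean in CF. They were immediate early genes and the heat shock genes Hspa1b, Dnajb1 and Hspb1. Of the 15, 11 had an unadjusted p under 0.05, where 7.94% of all loci did with the higher mean in CF. Junb was called, where 0.165% of all loci were. The summed level of the list was 770 to 927 CPM in CF and 489 to 662 CPM in WT. Its part in the level of Ppp1r15a was not tested.

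Asns (chr4:33743363-33761163), the asparagine synthetase gene that ATF4 controls, was high in only some CF libraries. It stood at 65.7, 30.0, 28.9 and 76.5 CPM in CF and at 14.97, 29.6, 29.7 and 29.4 CPM in WT. CF libraries 1 and 2 matched 3 of the WT libraries closely, CF libraries 0 and 3 were more than 2 times as high, and WT library 0 was low. The log2 ratio of 0.96 (SE 0.37, adjusted p = 0.285 by edgeR's quasi-likelihood test) was 0.18 without CF libraries 0 and 3.

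Trib3, a pseudokinase that restrains the response, followed another order. It was at 6.85, 13.4, 10.4 and 13.8 CPM in CF and at 8.95, 6.62, 6.33 and 8.12 CPM in WT. CF library 0, highest for Ppp1r15a and second for Asns, lay within the WT range, and the other 3 CF libraries lay above it. This gave a log2 ratio of 0.57 (SE 0.225, adjusted p = 0.279 by edgeR's quasi-likelihood test).

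Chac1 (chr3:111160204-111163425), a glutathione-degrading enzyme, had the largest fold change and the fewest fragments, 221 over the 8 libraries. It stood at 1.54, 1.30, 1.06 and 4.59 CPM in CF and at 0.487, 0.903, 0.559 and 1.09 CPM in WT. CF library 3 alone was far above the others, and CF library 2 lay just under the highest WT library. The log2 ratio was 1.49 (SE 0.50, adjusted p = 0.222 by edgeR's quasi-likelihood test) and 0.79 without CF library 3. Ddit3 encodes CHOP, the pro-apoptotic factor of the response, and showed no such pattern. It was at 18.8, 19.9, 22.7 and 21.1 CPM in CF and at 18.9, 16.7, 23.2 and 21.3 CPM in WT, a log2 ratio of 0.04 (SE 0.13, 95% interval −0.24 to 0.32). Its locus spans 89.0 kb in the table.

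**Figure D4:**
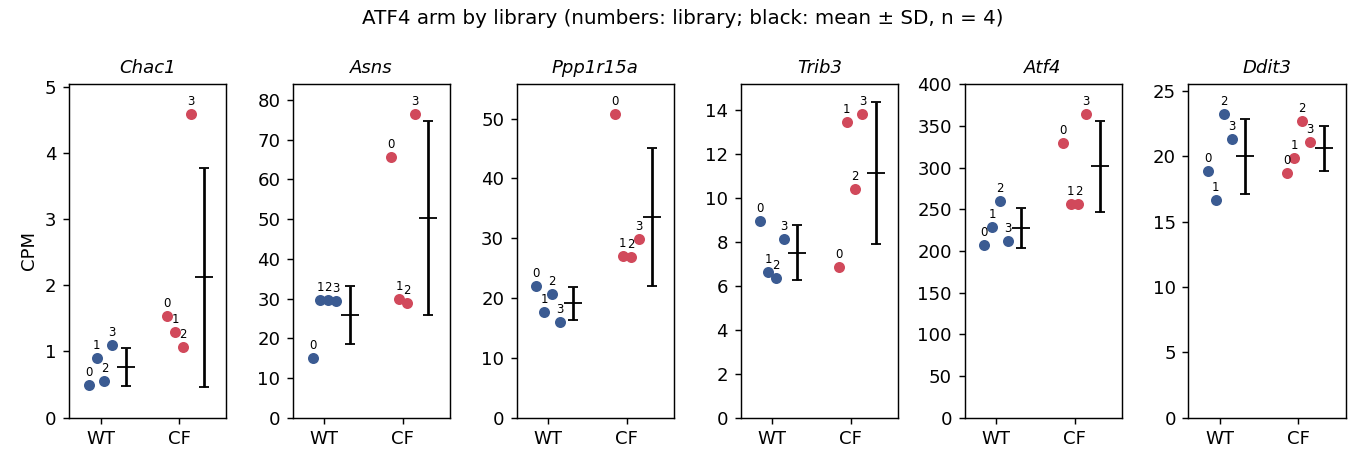
CPM of the 6 ATF4 arm genes by group, each point a library labelled with its number, with mean ± SD (n = 4) in black and a separate axis from 0 for each gene. CF library 3 is highest for Chac1, Asns, Trib3 and Atf4, CF library 0 for Ppp1r15a, and Ddit3 shows overlapping groups.

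Set side by side, the folding and ATF4 arms differed in which libraries carried them. The score of an arm in a library is the mean over its tested genes of log2(CPM + 0.5) minus the gene's mean. Folding scores were 0.49, −0.17, −0.06 and 0.15 in CF libraries 0 to 3 and −0.33, −0.11, −0.12 and 0.15 in WT, so CF libraries 1 and 2 sat among the WT libraries. ATF4 scores were 0.35, 0.09, 0.02 and 0.69 in CF and −0.42, −0.30, −0.23 and −0.21 in WT, with no overlap. ERAD scores were 0.11, 0.13, −0.09 and 0.24 in CF and −0.31, −0.11, −0.08 and 0.12 in WT. The sensors lay from 0.01 to 0.26 in CF and from −0.22 to 0.00 in WT. Thus CF library 0 led the folding arm, and CF library 3 led the ERAD, sensor and ATF4 arms. No test was made of the difference between arms, which hold different genes of the same libraries.

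The medians depended on these libraries to unequal degrees. Without CF library 0 the folding median was 0.04, with 9 of 12 genes favouring CF, and the ERAD, sensor and ATF4 medians were 0.19, 0.25 and 0.645. Without CF libraries 0 and 3 the folding median was −0.06, with 5 of 12 genes favouring CF, and the other 3 were 0.13, 0.19 and 0.34, with all 6 ATF4 genes favouring CF. Over all members, 23 of 32 then favoured CF, and 3 had an unadjusted p under 0.05, all higher in CF. Among the 16941 loci of the full test, 7849 favoured CF in that fit and 1173 were higher at such a p. WT library 0 was the lowest library in 21 of the 32 members, against 15.7% of all loci. Without it the folding median was 0.10 and the ATF4 median 0.715. An unadjusted p under 0.05 with the higher mean in CF was then reached by 7 members and by 1148 of the 16941 loci. Without CF library 3 these counts were 4 and 852.

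**Figure D5:**
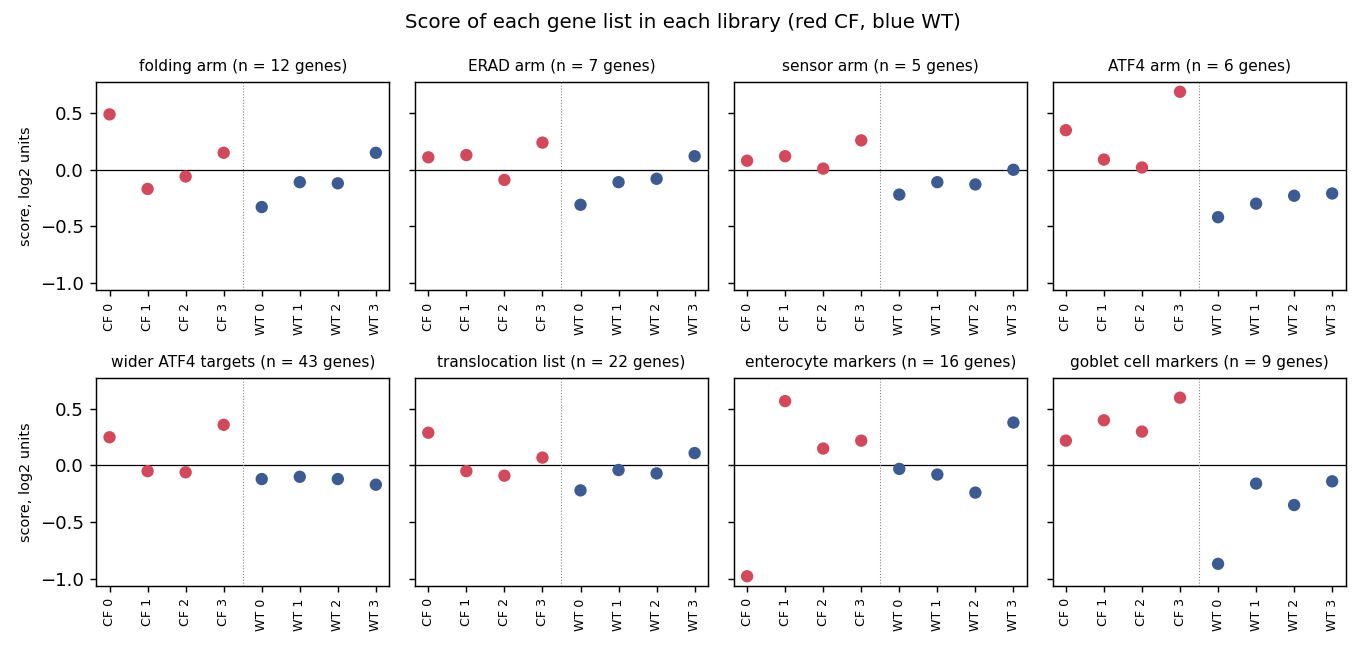
Score of each gene list in each library, the mean over its genes of log2(CPM + 0.5) minus the gene mean, with CF in red and WT in blue. Folding and translocation lists peak in CF library 0, ATF4 lists in CF library 3, enterocyte markers are lowest in CF library 0, and goblet cell markers are lowest in WT library 0.

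Cell type markers also differed between libraries, in part along with the arms and in part not, and their part in the arms was not tested. The 16 absorptive enterocyte markers summed to 12190 CPM in CF library 0, where the folding arm was highest, and to 24840 to 35770 CPM in the other CF libraries and 19400 to 32440 CPM in WT. None of the 16 was at 0 in any library. The 10 matched goblet cell markers summed to 8672 to 13440 CPM in CF and to 5958 to 10310 CPM in WT. Their lowest sum was in WT library 0, the library lowest in most members. In CF library 0, where the folding arm was highest, they summed to 8672 CPM, the lowest CF value. That was below WT library 1 at 9496 CPM and WT library 3 at 10310 CPM. By score, which weighs the 9 tested goblet cell markers alike, CF library 0 was also the lowest CF library, at 0.22. It was then above all WT libraries, at −0.87 to −0.14. Of the tested goblet genes 5 of 9 had an unadjusted p under 0.05 in favour of CF, where 7.94% of all loci did. Reg4, a secreted lectin, was called, where 0.165% of all loci were. The 9 plasma cell markers, another secretory type, summed to 41.9 to 58.0 CPM in CF and to 32.01 to 44.4 CPM in WT, again lowest in WT library 0, where 2 of them were at 0. CF library 0 held the lowest plasma cell sum of the CF group, 41.9 CPM, below WT library 3. Prdm1 alone gave 26.8 CPM of the sum in WT library 0 and 26.06 CPM in CF library 1. By score, which weighs the 7 tested plasma cell markers alike, CF library 0 stood at 0.39. That was below CF library 2 at 0.60 and above the WT libraries, at −0.98 to 0.37. Paneth cell markers summed to 2293 to 3157 CPM in CF and 2034 to 5068 CPM in WT, highest in WT library 3. Of the 6 tested Paneth genes, 5 had the lower mean in CF. An unadjusted p under 0.05 with the lower mean in CF was reached by 3 of them, where 7.21% of all loci did so.

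Exocrine pancreas, whose acinar cells are rich in ER chaperones and lie close to the duodenum, was checked in the same way. Its 16 matched markers summed to 172 CPM in CF library 2 and 67.6 CPM in WT library 1, and to 16.4 to 20.2 CPM in the other 6 libraries. Cela1 alone stood at 14.4 to 18.4 CPM over all 8 libraries, and in those 6 it made up most of the sum. CF library 0, highest in folding genes, had 10 of the 16 at 0, including Prss1, Amy2a3 and Ctrb1. The acinar factor Ptf1a was at 0 in all 8 libraries.

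Beyond the members, 152 further genes of the pathway were tested. Of these 119 had the higher mean in CF, against 49.2% of all loci. By edgeR's quasi-likelihood test 1 was called, where 0.165% of all loci were. An unadjusted p under 0.05 was reached by 31 with the higher mean in CF and 4 with the lower. Over all loci the shares at such a p were 7.94% and 7.21%. The called gene was Creb3l1, an ER-anchored transcription factor that, like ATF6, is released by cleavage in the Golgi and is known for control of collagen and secretory genes. It rose from 81.9, 82.5, 80.7 and 78.9 CPM in WT to 211, 184, 160 and 197 CPM in CF. The log2 ratio was 1.21 (SE 0.11, adjusted p = 0.00147 by edgeR's quasi-likelihood test). No CF library came near the WT range, and the value was 1.09 without CF libraries 0 and 3. The call was lost with limma on the authors' FPKM, with an adjusted p of 0.170 on log2(FPKM + 0.1) and 0.145 on log2(FPKM + 1). Its relatives Creb3 and Creb3l4 had log2 ratios of 0.31 and 0.37 with adjusted p of 0.162 and 0.238 in the same test.

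The wider ATF4 list repeated the split among CF libraries. In its 43 tested genes 34 favoured CF, 15 had an unadjusted p under 0.05, all of them higher in CF (7.94% of all loci), and the median was 0.29, but 0.09 without CF libraries 0 and 3. CF libraries 0 and 3 were the top pair in 60.5% of these genes, against 12.3% of all loci. Examples named for the smallest p were the transfer RNA synthetases Cars and Sars, at log2 ratios of 0.62 and 0.41, and the serine synthesis enzyme Psph at 0.61, with adjusted p of 0.162 to 0.165 by edgeR's quasi-likelihood test. Phgdh, the entry enzyme of serine synthesis and chosen after its values were seen, stood at 49.5, 20.03, 21.7 and 45.2 CPM in CF and at 22.8, 17.3, 13.7 and 13.4 CPM in WT. Like Asns, it was high in CF libraries 0 and 3, and in the other CF libraries it was within the WT range.

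The lists that serve entry, glycosylation and export gave small differences. In the 22 translocation genes 20 favoured CF, with a median of 0.12, and CF library 0 was highest in 20 of them. Without CF libraries 0 and 3 that median was −0.04. Ssr4, Ssr2 and Tram1, subunits and partners of the translocon, had log2 ratios of 0.315, 0.285 and 0.29. In the glycoprotein folding list 13 of 14 genes favoured CF, with the oligosaccharyltransferase subunits Ddost and Ost4 at 0.27 and 0.24. In the wider ERAD list 17 of 20 did, and Nploc4, a cofactor of the extraction motor p97, was at 0.385 with groups that did not overlap.

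Of the 16 genes of ER to Golgi transport, 13 favoured CF. Mcfd2, which partners the cargo receptor Lman1, stood at 51.8, 49.9, 49.9 and 54.0 CPM in CF and at 33.4, 34.3, 37.3 and 40.4 CPM in WT. All CF libraries were close together and above all WT libraries, with a log2 ratio of 0.50 (SE 0.09, adjusted p = 0.0674 by edgeR's quasi-likelihood test). The retrieval receptors Kdelr2 and Kdelr3, which return chaperones to the ER, had log2 ratios of 0.28 and 0.36.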

How the data were processed

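The authors deposited estimated counts, the unscaled raw fragments of each locus in each library, as a Cuffdiff gene table. Fractions made up 5.99% of them and were rounded to whole numbers. Per the file headers, the deposited FPKM values are Cuffdiff's, scaled by library and length, and they served for levels between genes and 2 alternatives. The submitters' processing notes name the build Rnor_6.0 and STAR 2.3.1z, with cutadapt, StringTie and Cuffdiff, and the settings were not given in the sources used here. A locus is a bundle of overlapping transcripts and may include neighbouring genes. The table numbers libraries 0 to 3 and the titles 1 to 4, so the group of each library is known but not its title, and no result uses that tie. Unused here were 2 other per-library columns.

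The filter on low counts was filterByExpr of edgeR (10 counts at least, 15 in total), and libraries were scaled by TMM and compared by edgeR's robust quasi-likelihood test of CF against WT, with Benjamini-Hochberg adjustment over all 16941 tested loci and a threshold of 0.05. Standard errors came from the fold change and the F statistic, and intervals are at 95%. CPM are the rounded counts over TMM-scaled library size. Counts of 15.3 to 20.9 M fragments a library leave Chac1 as the member least precisely counted. The fit was tested on simulated data. No score, arm or list was tested as a whole. Tests used edgeR 4.0.16, DESeq2 1.42.0 and limma 3.58.1 in R 4.3.3, and tables and figures used Python 3.11.15 with matplotlib 3.10.9 and pandas 2.3.3.

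The members, arms, lists and alternatives were chosen with earlier results of these data known. Values of every library are given for members whose groups did not overlap, the most abundant member of each arm, and Hspa5, Xbp1, Atf4 and Ddit3. From each wider list, called genes or up to 3 with the smallest unadjusted p under 0.05 are named. Hyou1, Creld2, Hsp90b1, Sec61a1, Edem1, Eif2ak3, Asns, Trib3, Chac1, Phgdh, Agr2, Fkbp7, Pdia5, Reg4, Junb and the alternative without CF libraries 0 and 3 were chosen after their values were seen. Other alternatives changed the scaling, filter, test, unit, pseudocount and libraries used.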

Additional observations from a re-analysis of the deposited data

Results flagged for a closer look

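In 82 groups of 4 libraries, 6 held a library whose gap to the nearest other, as a share of the group's range, passed Dixon's 95% critical value for 4 values. Chance flags about 1 in 20 groups. Asns in WT library 0 had a gap of 0.976, at 14.97 CPM below 29.4 to 29.7 CPM in the other WT libraries. Xbp1 in WT library 3 had a gap of 0.892, at 293 CPM above 215 to 224 CPM, and Pdia4, in a shared locus, had one of 0.881 in the same library, at 214 CPM above 174 to 179 CPM. Ern1 in WT library 2 had a gap of 0.880, at 45.6 CPM above 40.9 to 41.5 CPM. Ppp1r15a in CF library 0 had a gap of 0.875, at 50.8 CPM above 26.8 to 29.8 CPM. Chac1 in CF library 3 had a gap of 0.864, at 4.59 CPM above 1.06 to 1.54 CPM.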

How the results depend on the processing

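No paired analysis was possible because the labels give no litter or other pairing of CF with WT libraries. With 4 libraries a group, the spread between libraries limits the precision, and for Chac1 the number of fragments does too. Loci called numbered 566 of 40004 (1.41%) with DESeq2 and 553 of 40061 (1.38%) without the low-count filter, against 28 of 16941 (0.165%). They numbered 47 without CF libraries 0 and 3, 17 with limma-voom, and 11 and 2 with limma on log2(FPKM + 1) and log2(FPKM + 0.1). Leaving out 1 library gave 5 to 136. The members called were 2 with DESeq2 (adjusted p 0.0495 for Sdf2l1, 0.0138 for Ppp1r15a), 4 without the filter (0.0123 for Sdf2l1, 0.0299 for Atf6, 0.00485 for Ppp1r15a, 0.0419 for Chac1) and 0 with each library left out in turn. Those at an unadjusted p under 0.05 were 3 without CF libraries 0 and 3, 4 and 7 with log2(FPKM + 0.1) and log2(FPKM + 1), and 4 to 14 with 1 library left out, against 13. Over the 16941 loci, 1173 were higher in CF at such a p without CF libraries 0 and 3, against 1345 with all libraries. Wider genes called were 8, 10, 0 and 0 with DESeq2, without the filter and on both FPKM scales, and 1 to 2 with 1 library left out. Creb3l1 had an adjusted p of 0.170 and 0.145 on log2(FPKM + 0.1) and log2(FPKM + 1).

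The sensor median was 0.076 and 0.075 on log2(FPKM + 0.1) and log2(FPKM + 1), and the ATF4 median was 0.43 on log2(FPKM + 1) and 0.34 without CF libraries 0 and 3. With 1 library left out the medians ranged from 0.57 to 0.76 for ATF4, 0.15 to 0.27 for ERAD, 0.04 to 0.30 for folding, 0.20 to 0.30 for the sensors and 0.19 to 0.35 for all members. Of 35 loci followed over 16 alternatives, the shared ones included, 20 kept the sign of their fold change in all and 15 did not. Without CF libraries 0 and 3 the values that changed sign were Hspa5 −0.27, Hsp90b1 −0.26, Pdia4 −0.21, Creld2 −0.19, Hyou1 −0.13, Canx −0.092, Pdia3 −0.091, Herpud1 −0.091, Dnajb11 −0.08, Manf −0.054, Calr −0.034, P4hb 0.06 and Sel1l 0.073. Among fits with 1 library left out, some loci crossed 0, with ranges of −0.114 to 0.309 for Hspa5, −0.131 to 0.332 for Hsp90b1, −0.047 to 0.128 for Canx, −0.010 to 0.249 for Pdia3, −0.018 to 0.429 for Pdia4, −0.094 to 0.138 for P4hb, −0.043 to 0.058 for Sel1l, −0.037 to 0.120 for Ddit3 and −0.006 to 0.203 for Derl2. For Hspa5, Hsp90b1, Canx, Pdia3 and Pdia4 the lowest value was that without CF library 0. P4hb was 0.004 with DESeq2, 0.028 without the filter and 0.005 with limma-voom, and Sel1l was 0.009, 0.001 and 0.033 with DESeq2, median-of-ratios scaling and no filter. The causes were not tested.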

Other observations

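The list of oxidative folding genes, prolyl isomerases and protein disulfide isomerase relatives split in direction, with 13 of 25 tested genes higher in CF and 4 at an unadjusted p under 0.05 in each direction, where 7.94% of all loci were at such a p with the higher mean in CF and 7.21% with the lower. Agr2, an isomerase of mucus-secreting cells, was at 2153, 1609, 1843 and 2206 CPM in CF and at 880, 1385, 1170 and 1526 CPM in WT, a log2 ratio of CF over WT of 0.66 (adjusted p = 0.173 by edgeR's quasi-likelihood test). Txndc5, another isomerase, stood at 398 to 445 CPM in CF and 280 to 329 CPM in WT, a log2 ratio of 0.48 (adjusted p = 0.0972). The groups of both genes did not overlap, and the goblet marker scores were 0.22 to 0.60 in CF and −0.87 to −0.14 in WT; their part in these values was not tested.

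Lower means in CF were seen for Ppic, Fkbp9, Fkbp7 and Pdia5, 3 prolyl isomerases and an isomerase of disulfides. Ppic stood at 21.1, 16.7, 16.4 and 13.2 CPM in CF and at 25.3, 26.8, 28.4 and 23.1 CPM in WT, with no overlap and a log2 ratio of −0.62 (adjusted p = 0.106 by edgeR's quasi-likelihood test). Fkbp7 did not overlap either, with a log2 ratio of −0.66 (adjusted p = 0.190). Pdia5 was at 6.51, 4.40, 4.95 and 6.83 CPM in CF and at 11.5, 12.5, 12.8 and 4.64 CPM in WT, so its log2 ratio of −0.87 (adjusted p = 0.224) rested on 3 of the WT libraries. None of these genes passed the adjusted threshold.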
